A study of Mus musculus with 30 samples.

Results

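The hearts of 4 male C57BL/6JRj mice that were 25 months old and had received rapamycin were compared with those of 4 young controls aged 25 weeks, on Illumina BeadChip arrays. The 8 arrays were chosen by tissue and by source name, and are 8 of the 30 arrays in the series, which also covers kidney and brain of the same animals. Every mouse was wildtype. In the treated cohort the drug was started at 13 months of age and given for more than 12 months, and animals had been allotted to drug or vehicle at random. A further 2 control hearts, aged 25 months, entered the same model and are given beside the main values. Treated and young mice differ in age and in drug together, so that within this comparison the effects of the drug and of age cannot be told apart. The labels disagree on the controls. Sample titles carry a y before the word control on the arrays whose source name and age field say 25 months, and none on those that say 25 weeks. Source names and ages were followed here. Were the titles followed, the control groups would change places, and the comparison would be with 25-month controls.

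Rapamycin binds the small immunophilin FKBP12, encoded by Fkbp1a, and the complex inhibits mTOR complex 1, a kinase complex that promotes protein synthesis and restrains autophagy. The heart is built mainly of cardiomyocytes by mass, but resident macrophages, fibroblasts and vascular cells make up much of its cell number. In ageing rodent hearts, inflammatory genes and the slow myosin gene Myh7 are known to be more highly expressed than in young hearts. Heart tissue was measured in bulk here, and in bulk tissue a change in the number of cells of a type and a change in RNA per cell cannot be told apart.

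Values below are background-corrected, quantile-normalised log2 signals, in which 1 unit is a doubling, and they are given per mouse in the order 1 to 4 (old controls 1 and 2). Between 11923 and 12686 of 25697 probes were detected per heart array. All 15 cardiomyocyte markers on the array were detected on all 8 arrays of the comparison. Among them Myh6, the alpha myosin heavy chain, read 14.04, 14.19, 14.17 and 14.04 in young and 13.96, 14.16, 14.03 and 14.13 in treated hearts. Values this high lie near the top of the signal range, where quantile normalisation gives all arrays nearly the same values.

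Several arrays stood apart. On the first principal component, which held 34.5% of the variance, treated mice 1 and 3 scored 35.6 and 26.9, and all 8 other hearts lay between -14.1 and 1.56. Old control 1 lay apart on the second component, at -29.5. Acta1, the skeletal alpha-actin gene, read 9.22, 11.24, 8.85 and 11.98 in the treated hearts and 11.59, 12.37, 11.64 and 12.26 in the young ones, and was low in treated mice 1 and 3. Its difference of -1.64 ± 0.57 (log2, ± SE) did not pass the test (adjusted p = 0.182). Acot2, a mitochondrial acyl-CoA thioesterase gene, read 4.82, 7.30, 5.08 and 7.38 in the treated hearts, with mice 1 and 3 far below mice 2 and 4, against 7.83, 7.55, 7.71 and 7.83 in the young. A dimmer probe of Acot2 read 4.93, 5.02, 4.97 and 4.61 in the treated hearts and 4.75, 4.83, 4.85 and 5.16 in the young. These values lie near the detection floor, so this probe cannot show whether it shares that split. Young control 2 held signal of T-cell genes: Cd8b1, the CD8 beta chain, read 5.16, 11.17, 6.0 and 5.11 in the young hearts, and Cd3d, a T-cell receptor subunit, 4.54, 8.84, 4.69 and 4.63. Summed over the 8 T and NK cell markers tested, the young hearts spanned 8.32 to 12.2 and the treated hearts 8.80 to 9.32. In treated mouse 1 the B-cell receptor gene Cd79b read 7.06, against 5.03 to 5.45 in the other treated hearts. Results are therefore also given without treated mice 1 and 3, a choice made after their values were seen.

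**Figure D1:**
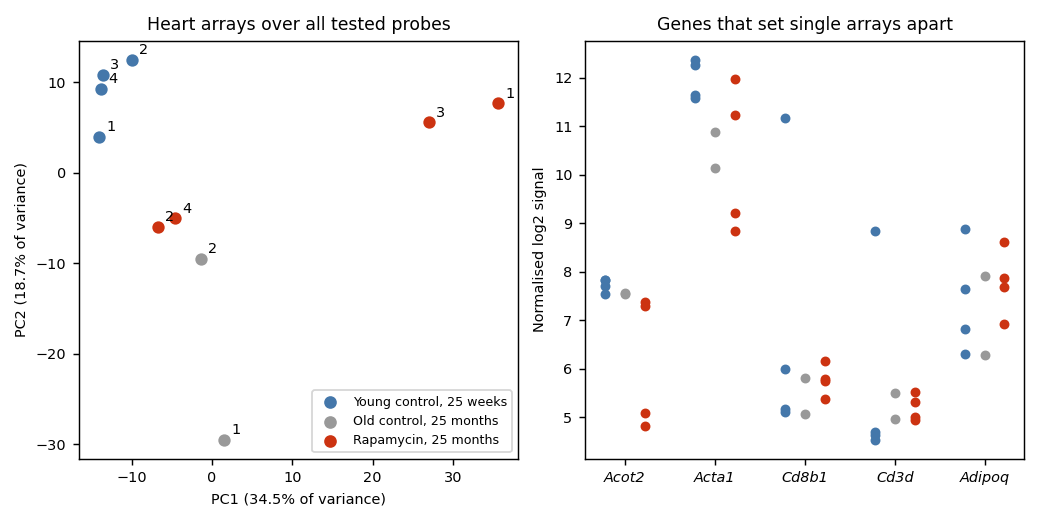
Left, scores of the 10 heart arrays on the first (34.5% of variance) and second (18.7%) principal component over all tested probes, numbered by mouse; treated mice 1 and 3 lie at 35.6 and 26.9 on the first. Right, normalised log2 signal of 5 genes, 1 point per heart in the same group colours; Acot2 is low in 2 treated hearts, and Cd8b1 and Cd3d are high in 1 young heart.

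Of 13773 probes tested, 130 passed at a Benjamini-Hochberg adjusted p under 0.05 between rapamycin-treated and young hearts (limma, 0.944% of probes). In treated hearts 105 were higher and 25 lower. With 1 probe per gene these stood for 90 genes that rose (0.941% of 9565) and 22 that fell (0.23%). Before adjustment 2462 of the 13773 probes had p under 0.05. That share stands beside every count of unadjusted p given for a list below. The median difference over all probes was -0.0049. Without treated mice 1 and 3 together the count was 31 probes (27 higher), and with single arrays left out it ran from 30 (young control 3 or young control 4) to 267 (treated mouse 2). It was 34 without young control 1, 66 without treated mouse 1 and 32 without treated mouse 3. Of the 54 called genes named below, 11 kept their call with each of the 10 heart arrays left out in turn: Ccl8, Cxcl13, C4b, Dbp, Ciart, Kcnk1, Mmp3, Rbm3, Csprs, Fam107a and Cyp2b10. The other 43 lost the call in at least 1 of those fits, and the arrays concerned are named with each group of genes. All 54 kept their direction each time. That was nearly fixed in advance, as treated and young hearts overlap for no called gene.

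**Figure D2:**
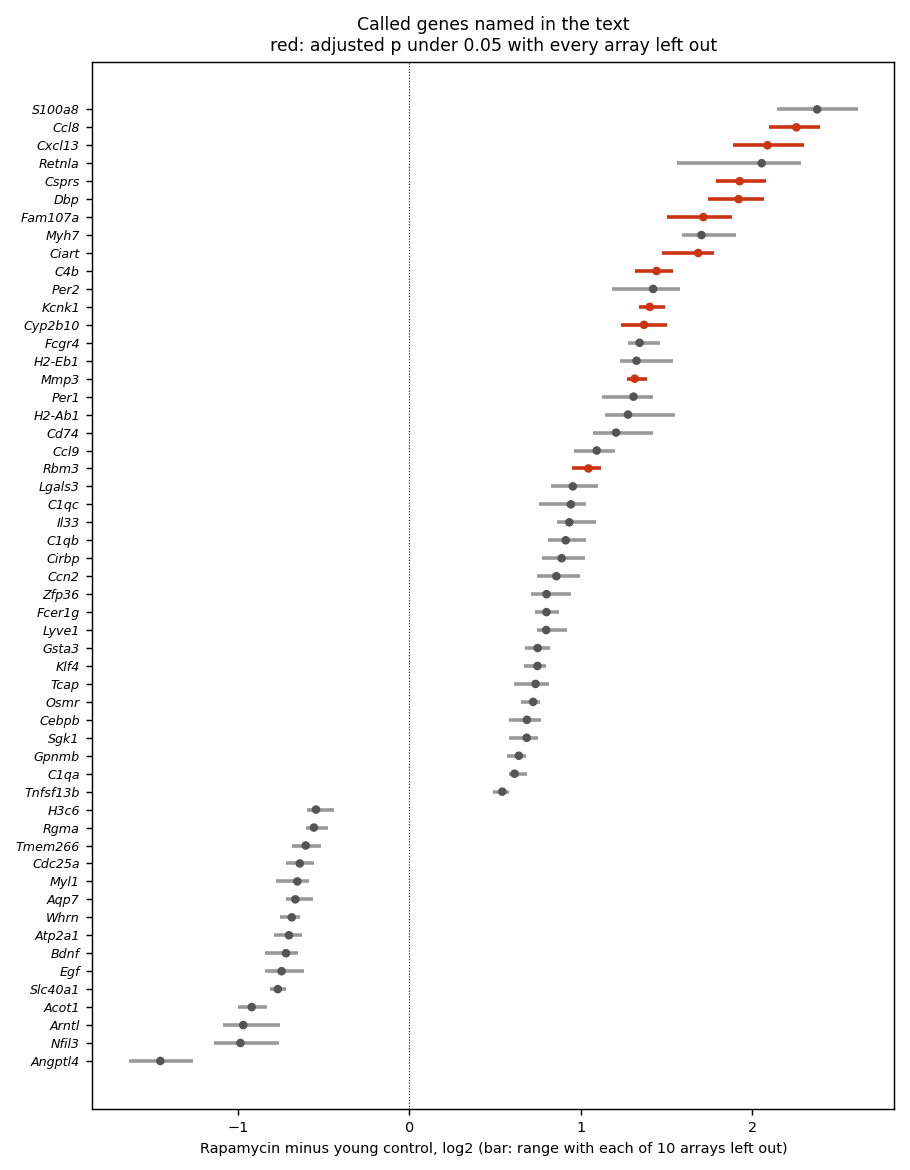
Difference of rapamycin-treated minus young hearts (log2, point) for the 54 called genes named in the text, with the range over the 10 fits that leave out 1 heart array (bar). All bars stay on their side of 0, which is nearly fixed in advance for genes whose groups do not overlap. The 11 red genes passed in every fit.

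Chemokine genes were among the steepest rises. Of 18 chemokine and B-cell survival factor genes tested, 4 rose and none fell, and the list's median difference was 0.29. Beside this and every list below stand the shares of all genes, 0.941% that rose and 0.23% that fell. Lists and members were chosen with earlier results of these data known, so such counts describe the lists and do not test them. Ccl8, a monocyte-attracting chemokine, read 5.32, 4.98, 4.77 and 5.03 in young and 7.72, 7.18, 7.35 and 6.88 in treated hearts. The groups were far apart, and the difference was 2.26 ± 0.23 (adjusted p = 0.00128), or 4.78-fold. Ccl8 was detected on 3 of 4 young arrays, and its size depends on the processing. Across 22 alternative settings the difference ran from 0.96 to 3.01. Cxcl13, the chemokine that draws B cells into follicles, read 6.09, 6.28, 5.80 and 5.95 in young and 8.72, 8.37, 7.89 and 7.48 in treated hearts, again without overlap, for a difference of 2.09 ± 0.22 (adjusted p = 0.00166). Treated mouse 1 was highest for both genes and treated mouse 4 lowest. Ccl9, a chemokine of the CC family made by myeloid cells, rose by 1.09 ± 0.18 (adjusted p = 0.0175), from 7.62 to 7.88 in young to 8.49 to 9.21 in treated hearts. Tnfsf13b, which encodes the B-cell survival factor BAFF, rose by 0.54 ± 0.10 (adjusted p = 0.0298), and both of its probes passed. Cxcl14, also on the list, is not counted as called. A dimmer probe of it passed at 0.87 (adjusted p = 0.0298), but its brightest probe did not. Ccl5, a chemokine of T and NK cells, read 7.04, 6.07, 6.52 and 5.96 in treated and 4.84, 5.62, 4.54 and 4.83 in young hearts and missed the threshold (adjusted p = 0.0795). The call of Ccl9 was lost without young controls 1, 3 or 4 or treated mouse 3 (adjusted p 0.0595 to 0.0660), and that of Tnfsf13b without young controls 1, 2, 3 or 4 or treated mice 3 or 4 (0.0616 to 0.101). Of the 4, Ccl8, Cxcl13 and Tnfsf13b passed without treated mice 1 and 3 together.

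S100a8, the myeloid calcium-binding protein that is abundant in neutrophils, had the largest rise of all called genes. It read 5.52, 6.79, 6.37 and 6.17 in young and 9.10, 8.56, 8.82 and 7.88 in treated hearts, which did not overlap, for 2.38 ± 0.48 (adjusted p = 0.0417). Its partner S100a9 read 4.57, 5.55, 5.43 and 4.89 and 7.33, 7.48, 7.04 and 6.54, a difference of 1.99 ± 0.43 that fell short of the threshold (adjusted p = 0.0567). The call of S100a8 was lost without young controls 1, 3 or 4 or treated mice 1 or 3 (adjusted p 0.109 to 0.134), and without treated mice 1 and 3 together (0.246). Of 12 neutrophil markers on the array only 5 were detected well enough to be tested, and S100a8 alone passed. Lcn2, an iron-sequestering neutrophil protein, differed by 0.42 ± 0.25 (adjusted p = 0.380). The summed level of the 5 markers spanned 7.56 to 8.23 in young and 8.92 to 9.79 in treated hearts, and 9.63 and 12.1 in the old controls. The sum adds unlogged signals, so that the brightest markers weigh most. It contains S100a8 and S100a9 and is not separate from their results. The part of neutrophil number in these differences was not tested.

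Complement and macrophage genes also rose. Of 12 complement genes tested 4 rose and none fell, beside 0.941% and 0.23% of all genes, and the median was 0.55. C4b, the fourth complement component, read 7.21, 7.71, 7.42 and 7.46 in young and 9.28, 8.60, 8.89 and 8.80 in treated hearts, with no overlap, a difference of 1.44 ± 0.18 (adjusted p = 0.00552). The 3 chains of C1q, the recognition molecule of the classical pathway, rose as well. C1qb read 8.45, 8.99, 8.49 and 8.59 in young and 9.87, 9.56, 9.52 and 9.22 in treated hearts, a difference of 0.91 ± 0.19 (adjusted p = 0.0451). C1qc differed by 0.94 ± 0.19 (adjusted p = 0.0412) and C1qa by 0.61 ± 0.13 (0.0460). Young control 2 was the highest young heart for all 3 chains. Serping1, the C1 inhibitor, read higher in every treated heart, but its difference of 0.52 ± 0.13 did not pass (adjusted p = 0.0859). Without treated mice 1 and 3 together 1 of the 11 complement genes then tested passed, C4b.

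Among 22 macrophage markers tested 5 rose and none fell, beside 0.941% and 0.23% of all genes, at a median of 0.53. Of the 22, 12 had all treated hearts above all young ones (5.57% of all genes did). Besides C1q the 5 that rose were Fcer1g, the common Fc receptor gamma chain, and Lyve1, a hyaluronan receptor of resident macrophages and lymphatic vessels. Fcer1g read 8.05, 8.39, 8.21 and 8.11 in young and 9.04, 8.94, 8.77 and 9.20 in treated hearts, a difference of 0.80 ± 0.13 (adjusted p = 0.0169). Lyve1 rose by 0.80 ± 0.17 (adjusted p = 0.0460). The summed level of the 22 markers was 12.7 to 13.3 in young, 13.4 to 13.8 in treated and 13.5 to 13.9 in old control hearts. Fcgr4, an activating Fc receptor of myeloid cells, was not on that list and rose by 1.34 ± 0.24 (adjusted p = 0.0240), from 5.43 to 5.74 to a range of 6.58 to 7.11. Gpnmb, a glycoprotein of lipid-laden macrophages, rose by 0.64 ± 0.10 (adjusted p = 0.0185), and Lgals3, the secreted lectin galectin-3, by 0.95 ± 0.18 (0.0293). The call of Fcer1g was lost without young controls 1, 3 or 4 (adjusted p 0.0594 to 0.0605), that of Gpnmb without young controls 1 or 4 (0.0541 to 0.0638), and that of Lgals3 without young controls 1 or 4 or treated mice 1, 3 or 4 (0.0523 to 0.105). C1qc and Fcgr4 lost theirs without young controls 1, 3 or 4 or treated mice 1 or 3 (0.0554 to 0.131 and 0.0576 to 0.0974). C1qb lost it without young controls 1, 3 or 4 or treated mice 1, 2 or 3 (0.0537 to 0.151), C1qa without young controls 1, 3 or 4 or treated mice 1, 2, 3 or 4 (0.0570 to 0.157), and Lyve1 without young controls 1, 2, 3 or 4 or treated mice 1, 2, 3 or 4 (0.0543 to 0.152). Without treated mice 1 and 3 together 1 of the 22 markers passed (Fcer1g, adjusted p = 0.0494), at a median of 0.51. How far macrophage number moves these values was not tested.

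Retnla, Il33 and Osmr rose too. Retnla, a resistin-like protein of alternatively activated macrophages, read 6.47, 6.77, 6.13 and 6.13 in young and 9.93, 7.73, 8.15 and 7.91 in treated hearts. Treated mouse 1 was the highest by a wide margin, but the other 3 treated hearts also lay above every young one, and the difference was 2.05 ± 0.42 (adjusted p = 0.0417). Il33, an alarmin of the interleukin-1 family, read 5.62, 6.22, 5.66 and 5.54 in young and 6.82, 6.66, 6.72 and 6.57 in treated hearts, a difference of 0.93 ± 0.15 (adjusted p = 0.0185). Osmr, the oncostatin M receptor, rose by 0.72 ± 0.14 (adjusted p = 0.0330). Il33 and Osmr were the 2 of 11 cytokine and receptor genes that passed. The call of Retnla was lost without young controls 1, 3 or 4 or treated mouse 3 (adjusted p 0.0989 to 0.140), that of Il33 without the same arrays (0.0614 to 0.0744), and that of Osmr without young controls 1, 3 or 4 or treated mice 1 or 3 (0.0691 to 0.124). None of the 3 passed without treated mice 1 and 3 together, where Retnla differed by 1.45 (adjusted p = 0.0971), Il33 by 0.85 (0.124) and Osmr by 0.63 (0.160). None of 26 interferon-stimulated genes passed in limma, at a median of 0.30, with 9 below 0.05 before adjustment. Of 16 class I antigen presentation genes none passed, at a median of 0.40, and 7 had an unadjusted p under 0.05. Over all tested probes 2462 of 13773 did.

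**Figure D3:**
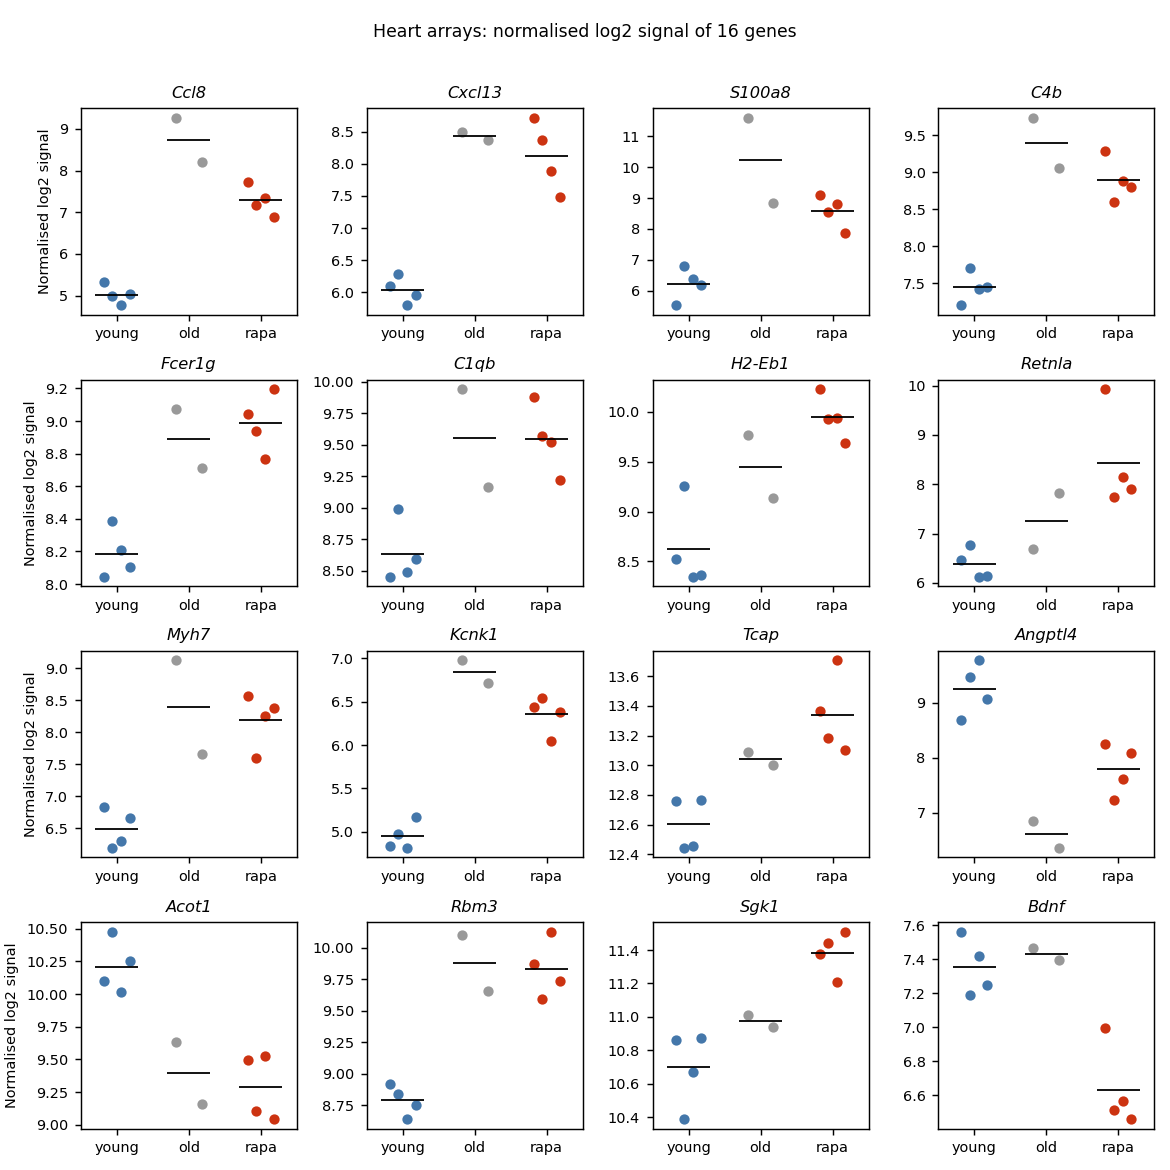
Normalised log2 signal of 16 genes in the 4 young, 2 old control and 4 rapamycin-treated (rapa) hearts, 1 point per mouse in order of its number, with the group mean as a bar. In every panel the treated hearts lie wholly above or wholly below the young hearts, as for every called gene. Both old controls lie beyond the treated hearts for Ccl8, Kcnk1 and Angptl4.

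MHC class II genes encode the chains and loading factors that present peptides to CD4+ T cells, and are expressed by macrophages, dendritic cells and B cells. Of 11 on the array 8 were tested. All 8 differences were positive, at a median of 0.99, and 3 passed, beside 0.941% of all genes that rose. H2-Eb1, a class II beta chain, read 8.52, 9.26, 8.35 and 8.36 in young and 10.23, 9.93, 9.94 and 9.68 in treated hearts, a difference of 1.32 ± 0.21 (adjusted p = 0.0171). H2-Ab1, the beta chain of the other class II molecule, read 8.72, 9.74, 8.53 and 8.67 and 10.47, 10.11, 10.27 and 9.91, a difference of 1.27 ± 0.26 (adjusted p = 0.0412), and 2 of its 4 probes passed. Young control 2 was the highest young heart for both, yet stayed below every treated heart. Cd74, the invariant chain, differed by 1.21 ± 0.23 (adjusted p = 0.0315). H2-Aa, the alpha chain partner of H2-Ab1, differed by 1.05 ± 0.24 (adjusted p = 0.0657) and H2-DMa, a chain of the peptide exchange factor, by 0.93 ± 0.21 (0.0679), both short of the threshold. H2-DMb1, its partner, differed by 0.69 ± 0.18 (adjusted p = 0.0953). Ciita, the class II transactivator, read 4.47, 5.02, 4.38 and 4.44 and 5.29, 4.96, 4.75 and 4.73 in overlapping groups (adjusted p = 0.284), and H2-Ob, a subunit of the exchange inhibitor, also overlapped (0.670).

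With young control 2 left out, the array with the T-cell signal, 5 of the 8 class II genes passed (H2-Eb1, H2-Ab1, Cd74, H2-Aa and H2-DMa) at a median of 1.17. With treated mice 1 and 3 left out none passed, at a median of 0.86. H2-Eb1 lost its call without young controls 1, 3 or 4 or treated mouse 3 (adjusted p 0.0561 to 0.0660), H2-Ab1 without young controls 1, 3 or 4 or treated mice 1, 3 or 4 (0.0515 to 0.140), and Cd74 without young controls 1, 3 or 4 or treated mice 1 or 3 (0.0758 to 0.118). Of the 5 tested B and plasma cell markers 1 passed, Cd74, which is itself one of the class II genes. Cd79b read 5.07, 5.76, 4.55 and 4.73 in young and 7.06, 5.03, 5.45 and 5.30 in treated hearts, which overlapped (adjusted p = 0.432). The 5 markers summed to 10.9 to 11.3 in young and 11.4 to 11.8 in treated hearts, a sum that contains Cd74. The part of B cells in the class II difference was not tested.

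The upstream sequences of 2 class II genes are shown because class II promoters carry a conserved Y box, bound by the factor NF-Y. They are the 2 tested class II genes whose window held a match. Each is the 250 bases before a transcript start in RefSeq (build GRCm38.p6), read 5′ to 3′ on the gene's strand, with matches to CTGATTGG, on either strand, in capitals. H2-Eb1 is at chr17:34305617-34305866 on the plus strand and H2-Aa at chr17:34287824-34288073 on the minus strand.
H2-Eb1: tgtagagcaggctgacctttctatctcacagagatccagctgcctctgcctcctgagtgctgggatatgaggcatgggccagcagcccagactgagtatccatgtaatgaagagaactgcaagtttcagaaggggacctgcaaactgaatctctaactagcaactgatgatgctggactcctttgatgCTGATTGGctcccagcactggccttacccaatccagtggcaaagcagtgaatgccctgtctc
H2-Aa: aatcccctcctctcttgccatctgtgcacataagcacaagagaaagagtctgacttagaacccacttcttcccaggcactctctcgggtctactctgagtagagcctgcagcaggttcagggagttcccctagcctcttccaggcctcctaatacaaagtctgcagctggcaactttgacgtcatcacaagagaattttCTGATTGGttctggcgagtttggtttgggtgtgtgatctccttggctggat
Counted from the transcript start, the match began at position -62 in H2-Eb1 and at -51 in H2-Aa. It was found in 3.83% of 32851 such windows of the table, and among tested class II genes in 2 of the 5 that had one. A match is a run of letters, not evidence of binding in these hearts.

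Genes of the circadian clock formed the other large group. CLOCK and BMAL1, the latter encoded by Arntl, activate the Per and Cry repressors, Nr1d1 and Dbp through E-boxes. NR1D1 (REV-ERB alpha) in turn represses Arntl and Nfil3 through ROR elements, and DBP and its antagonist NFIL3 compete at D-boxes. Of 16 clock and output genes tested, 4 rose and 2 fell, beside 0.941% and 0.23% of all genes. This list too was chosen with earlier results of these data known. The time of day at which hearts were taken is not given in the sources used here.

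Upstream sequences are shown of the 3 called clock genes whose window held a motif of that circuit, and were chosen for that match. The windows of the called genes Dbp and Arntl held none of the 3 motifs, and Per2 has no window in the table. Each is again the 250 bases before a transcript start in RefSeq (GRCm38.p6). That start is not the outermost one of the gene: the Per1 and Nfil3 windows lie inside the gene's full span, and that of Ciart overlaps it. Per1 has 2 windows, and the one with matches is shown. Capitals mark an E-box (CACGTG), a D-box (TTATGTAA or TTATGCAA) or a ROR element (TAGGTCA, whose reverse complement is TGACCTA), searched on both strands, and none of these overlap. Ciart is at chr3:95882229-95882478 (minus strand), Per1 at chr11:69098699-69098948 (plus) and Nfil3 at chr13:52981040-52981289 (minus).
Ciart: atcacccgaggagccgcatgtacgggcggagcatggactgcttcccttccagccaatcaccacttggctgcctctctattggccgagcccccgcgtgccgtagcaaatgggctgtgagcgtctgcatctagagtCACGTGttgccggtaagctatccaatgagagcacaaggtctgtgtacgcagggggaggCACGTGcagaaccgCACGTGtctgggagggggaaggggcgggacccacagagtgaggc
Per1: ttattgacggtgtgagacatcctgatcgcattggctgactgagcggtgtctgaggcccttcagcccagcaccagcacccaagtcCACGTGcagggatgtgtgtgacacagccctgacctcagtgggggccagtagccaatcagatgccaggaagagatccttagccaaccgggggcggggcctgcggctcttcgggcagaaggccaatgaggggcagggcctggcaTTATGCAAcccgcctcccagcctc
Nfil3: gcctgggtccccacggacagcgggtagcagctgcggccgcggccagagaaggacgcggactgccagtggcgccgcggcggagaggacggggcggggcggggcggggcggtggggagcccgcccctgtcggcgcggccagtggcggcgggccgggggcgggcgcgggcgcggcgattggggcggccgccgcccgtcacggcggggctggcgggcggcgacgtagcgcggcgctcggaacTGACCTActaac
Ciart held 3 E-boxes, which began at positions -116, -58 and -44 from that transcript start. Per1 held an E-box at -166 and a D-box at -24, and Nfil3 a ROR element at -12. Of all windows 6.02% held the E-box, 1.5% a D-box and 2.23% the ROR element. Of 14 tested clock genes with a window, 3 held an E-box, 2 a D-box and 1 the ROR element.

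Of the clock's repressors, Per1, Per2 and Ciart rose. Per1 read 8.10, 7.31, 7.93 and 8.13 in young and 9.45, 8.84, 9.57 and 8.84 in treated hearts, a difference of 1.31 ± 0.21 (adjusted p = 0.0175). Per2 read 7.44, 6.24, 7.04 and 7.16 and 8.25, 8.25, 8.79 and 8.28, a difference of 1.42 ± 0.24 (adjusted p = 0.0235). Neither gene's groups overlapped, treated mouse 3 was the highest for both, and young control 2 the lowest. Both probes of each gene passed. Ciart (CHRONO), a repressor of BMAL1, read 4.90, 4.60, 4.35 and 4.85 and 6.16, 6.16, 6.95 and 6.17, a difference of 1.68 ± 0.21 (adjusted p = 0.00552), and was detected on 1 of 4 young and 4 of 4 treated arrays. Per3 differed by 0.72 ± 0.19 (adjusted p = 0.0985) and Cry2 by 0.56 ± 0.20 (0.181), and neither passed. Bhlhe40 (DEC1), a further repressor, differed by 0.70 ± 0.21 (adjusted p = 0.138). Nr1d1 read 7.74, 7.53, 7.67 and 7.62 and 8.59, 8.0, 8.73 and 7.93. Its brighter probe missed the threshold at 0.68 ± 0.17 (adjusted p = 0.0834), while a dimmer probe passed at 0.86 ± 0.18 (adjusted p = 0.0442). Nr1d2 differed by 0.48 ± 0.16 in overlapping groups (adjusted p = 0.164).

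The activator Arntl was lower. It read 6.97, 7.28, 7.03 and 6.86 in young and 6.07, 6.35, 5.43 and 6.41 in treated hearts, a difference of -0.97 ± 0.19 (adjusted p = 0.0412), and treated mouse 3 was the lowest. Clock, Npas2 and Rora did not pass. Clock read 9.49, 9.25, 9.31 and 9.41 in young and 9.13, 9.38, 8.98 and 9.31 in treated hearts. Npas2 differed by 0.01 ± 0.14 (adjusted p = 0.980) and Rora by 0.26 ± 0.16 (0.413). Of the outputs, Dbp, a D-box activator, read 8.63, 7.65, 7.91 and 8.53 in young and 10.08, 9.94, 10.53 and 9.84 in treated hearts. That is 3.78-fold, or 1.92 ± 0.23 (adjusted p = 0.00438), the largest difference among clock genes. Nfil3 read 9.05, 8.97, 9.01 and 8.86 and 7.84, 8.36, 7.31 and 8.45, a difference of -0.99 ± 0.20 (adjusted p = 0.0460). The D-box activator Tef and the deubiquitinase Usp2 did not pass at their brightest probes (adjusted p = 0.265 and 0.181). The 2 probes of Tef disagreed, the dimmer one at -0.69 ± 0.15 (adjusted p = 0.0567).

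Dbp and Ciart kept their call in all 10 fits with 1 heart left out and without treated mice 1 and 3, at 1.73 and 1.44. Per1 lost its call without young control 3 or treated mouse 3 (adjusted p 0.0561 to 0.0594), and Per2 without young controls 3 or 4 or treated mouse 3 (0.0605 to 0.0773). Arntl lost it without young controls 1, 2, 3 or 4 or treated mice 1 or 3 (0.0614 to 0.127), and Nfil3 without young controls 1, 2, 3 or 4 or old controls 1 or 2 or treated mice 1 or 3 (0.0610 to 0.142). Without treated mice 1 and 3 the differences were 0.98 for Per1, 1.31 for Per2, -0.65 for Arntl and -0.57 for Nfil3, and these 4 did not pass (adjusted p 0.112, 0.139, 0.113 and 0.0520).

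**Figure D4:**
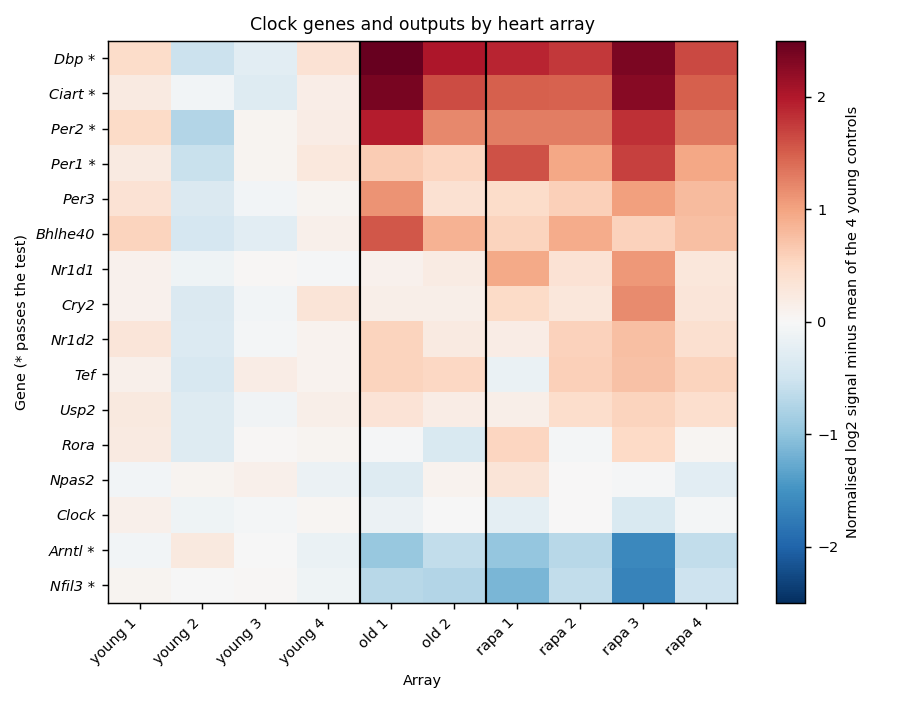
Normalised log2 signal minus the mean of the 4 young controls for the 16 clock genes (rows, ordered by difference; * passes the test) in each heart (columns, grouped young, old control and rapamycin). Dbp, Ciart, Per1 and Per2 are higher and Arntl and Nfil3 lower in all 4 treated hearts than in every young heart, among the treated hearts mouse 3 departs most for each of these 6 genes, and old control 1 departs further still for Dbp, Ciart and Per2.

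A few muscle genes changed. Of 18 sarcomere and Z-disc genes 2 rose, beside 0.941% of all genes, at a list median of 0.03 that turned to -0.016 under median scaling. None of the 15 cardiomyocyte markers passed in limma, and 0 had an unadjusted p under 0.05. Myh7, the slow beta myosin heavy chain, read 6.84, 6.19, 6.29 and 6.66 in young and 8.56, 7.59, 8.26 and 8.38 in treated hearts without overlap, a difference of 1.70 ± 0.29 (adjusted p = 0.0233). Tcap (telethonin), a Z-disc cap of titin, rose by 0.74 ± 0.14 (adjusted p = 0.0326), from 12.4 to 12.8 in young to 13.1 to 13.7 in treated hearts. Kcnk1, a tandem-pore potassium channel that is enriched in atria, read 4.84, 4.98, 4.81 and 5.17 and 6.44, 6.54, 6.05 and 6.38, a difference of 1.40 ± 0.13 (adjusted p = 0.000794). Detected on 3 of 4 young arrays, Kcnk1 differed by 0.48 to 2.13 across the 22 alternative settings. It was the 1 member of the 14 atrial markers that passed, and the atrial markers summed to 15.7 to 15.8 in young and 15.6 to 16.0 in treated hearts, so that the groups overlapped. Of natriuretic peptide genes, markers of stretch, Nppb differed by 0.25 ± 0.23 (adjusted p = 0.575) and Nppa read 14.37, 14.40, 14.35 and 14.40 and 14.36, 14.40, 14.37 and 14.35, which overlapped. Nppa lay near the top of the signal range, where quantile normalisation leaves little room for a difference. Its values could therefore hardly show a rise, and the atrial sum contains Nppa.

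Both Atp2a1 and Myl1 fell. Atp2a1, the calcium pump of fast skeletal muscle, read 5.99, 5.80, 6.29 and 6.10 in young and 5.31, 5.26, 5.32 and 5.48 in treated hearts, a difference of -0.70 ± 0.12 (adjusted p = 0.0239). Myl1, a fast skeletal light chain, fell with a difference of -0.65 ± 0.14 (adjusted p = 0.0473), from 11.6 to 12.2 down to 11.2 to 11.6. Neither was on the list of skeletal muscle markers, of which none of 6 tested passed, at a median of -0.18, and 1 had an unadjusted p under 0.05. Of 35 extracellular matrix genes 2 rose, beside 0.941% of all genes, at a median of 0.12. A dimmer probe of a further member, Tgfbi, passed at 0.71 (adjusted p = 0.0336), but its brightest probe did not. Mmp3 (stromelysin-1), a matrix protease, read 6.20, 6.21, 6.17 and 6.31 and 7.64, 7.32, 7.67 and 7.52, a difference of 1.31 ± 0.18 (adjusted p = 0.00672). Ccn2 (CTGF), a matricellular protein induced by stretch and TGF-beta, read 11.43, 11.12, 11.87 and 11.39 and 12.37, 12.12, 12.42 and 12.32, a difference of 0.86 ± 0.16 (adjusted p = 0.0322). Of 12 fibroblast markers none passed in limma, and 4 had an unadjusted p under 0.05 (2462 of 13773 probes did). Myh7 lost its call without young controls 1, 3 or 4 or treated mice 1 or 3 (adjusted p 0.0543 to 0.0885), and Atp2a1 without the same arrays (0.0548 to 0.0885). Tcap lost it without young controls 1, 2, 3 or 4 or treated mice 1 or 3 (0.0666 to 0.124), Myl1 without young controls 2, 3 or 4 or old controls 1 or 2 or treated mice 1 or 3 (0.0610 to 0.161) and Ccn2 without young controls 1, 2 or 4 or treated mice 1, 3 or 4 (0.0587 to 0.107). No sarcomere or matrix gene passed without treated mice 1 and 3 together (adjusted p = 0.147 for Myh7 and 0.0736 for Mmp3).

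Targets of the fatty acid sensor PPAR fell in part. Of 12 tested 2 fell and none rose, beside 0.23% of all genes, at a median of -0.21. The list was likewise chosen with earlier results known. Angptl4, a secreted inhibitor of lipoprotein lipase, read 8.69, 9.47, 9.77 and 9.06 in young and 8.25, 7.23, 7.62 and 8.08 in treated hearts without overlap, and its difference of -1.45 ± 0.26 was the deepest fall of all called genes (adjusted p = 0.0239). Acot1, the cytosolic acyl-CoA thioesterase, read 10.10, 10.48, 10.02 and 10.25 and 9.49, 9.11, 9.52 and 9.04, a difference of -0.92 ± 0.16 (adjusted p = 0.0212). Acot1 and Acot2 are close paralogues, and only 1 of the 2 probes of Acot1 passed. Pdk4, the kinase that inhibits pyruvate dehydrogenase, read 12.24, 11.91, 12.50 and 12.21 and 11.92, 10.73, 11.82 and 11.47, with overlap, a difference of -0.73 ± 0.23 that did not pass (adjusted p = 0.154). Aqp7, a glycerol channel, was on no such list and fell with a difference of -0.67 ± 0.12 (adjusted p = 0.0239), with 2 of its 4 probes passing. Of 21 fatty acid oxidation genes Acot1 alone fell. None of 58 oxidative phosphorylation genes passed in limma, at a median of -0.08, and 7 had an unadjusted p under 0.05. Over all tested probes 2462 of 13773 did. Angptl4 lost its call without young controls 3 or 4 or treated mouse 3 (adjusted p 0.0639 to 0.0885), Acot1 without young controls 1, 3 or 4 (0.0504 to 0.0712) and Aqp7 without young controls 1, 3 or 4 or treated mouse 3 (0.0561 to 0.0902). With both treated mice 1 and 3 left out, Acot1 was the PPAR target that passed (adjusted p = 0.0362), and Angptl4 did not (0.0971).

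**Figure D5:**
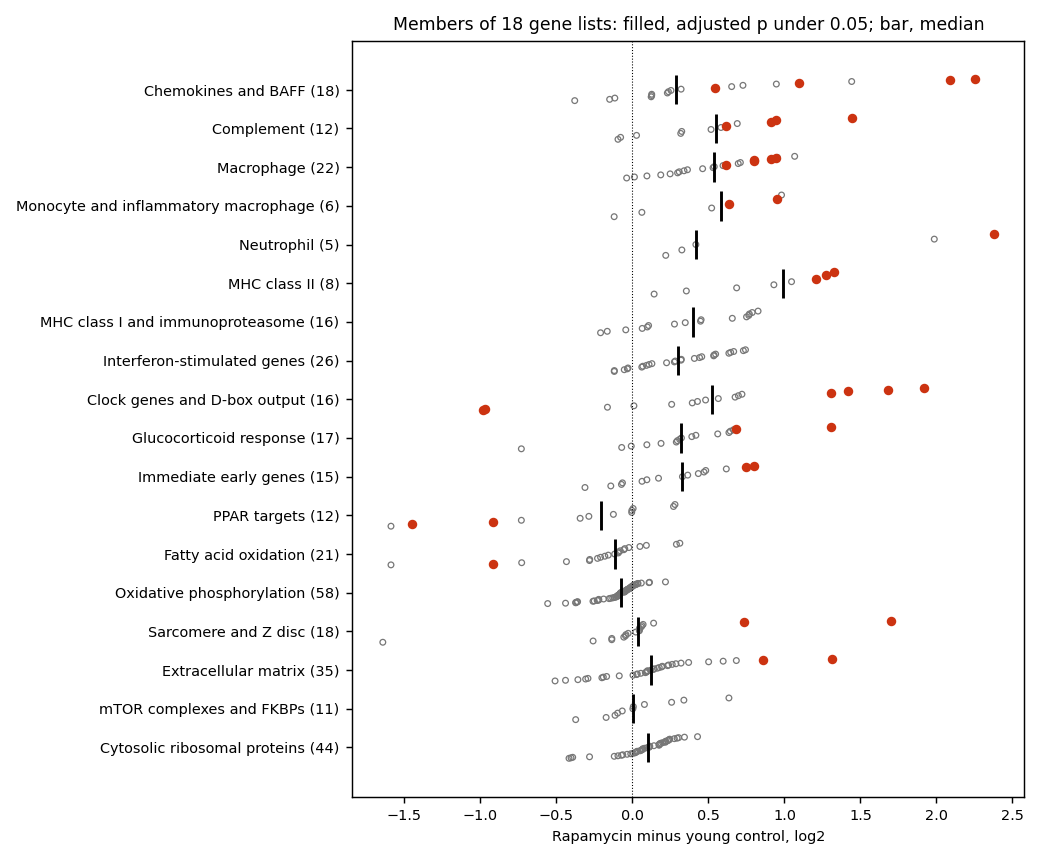
Difference of rapamycin-treated minus young hearts (log2) for each tested member of 18 gene lists, with the number of members in brackets; filled points passed the test and bars mark the list medians. The MHC class II median lies at 0.99, while those of oxidative phosphorylation (-0.08), sarcomere (0.03) and mTOR complex genes lie near 0.

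Cold-inducible RNA-binding proteins and stress-responsive genes rose in small numbers. Rbm3 read 8.92, 8.84, 8.64 and 8.75 in young and 9.87, 9.60, 10.13 and 9.73 in treated hearts, a difference of 1.04 ± 0.14 (adjusted p = 0.00672). Its 2 dimmer probes did not pass, at 0.005 ± 0.14 and -0.43 ± 0.12. Cirbp, the second of the 2 classical members, read 6.77, 6.82, 7.27 and 7.08 and 8.0, 7.45, 8.23 and 7.81, a difference of 0.89 ± 0.17 (adjusted p = 0.0330). Of 17 genes known to respond to glucocorticoids 2 rose, Per1 and Sgk1, beside 0.941% of all genes, at a median of 0.32. Sgk1, a serum- and glucocorticoid-induced kinase, read 10.86, 10.39, 10.67 and 10.88 and 11.38, 11.44, 11.21 and 11.51, a difference of 0.68 ± 0.12 (adjusted p = 0.0257). Tsc22d3 (GILZ) read higher in all treated than in all young hearts, but missed the threshold at 0.56 ± 0.12 (adjusted p = 0.0567). Fkbp5, a co-chaperone of the glucocorticoid receptor, differed by 0.63 ± 0.17 in overlapping groups (adjusted p = 0.0989). Of 15 immediate early genes 2 rose, beside the same 0.941%. Zfp36 (tristetraprolin), which destabilises cytokine mRNA, differed by 0.80 ± 0.15 (adjusted p = 0.0333), and the transcription factor Klf4 by 0.75 ± 0.13 (0.0271), with 1 of its 3 probes passing. Cebpb, a C/EBP transcription factor, was the 1 of 15 ATF4-linked genes that passed, at 0.69 ± 0.14 (adjusted p = 0.0412). Gsta3, a glutathione transferase, was the 1 of 24 antioxidant genes, and read 7.77, 7.88, 7.79 and 7.71 and 8.76, 8.42, 8.63 and 8.32, a difference of 0.75 ± 0.11 (adjusted p = 0.0121). Calls were lost without young controls 1, 2, 3 or 4 or treated mice 1, 3 or 4 for Cirbp and Cebpb (adjusted p 0.0548 to 0.119 and 0.0600 to 0.127), and without the same arrays for Zfp36 (0.0515 to 0.124). Sgk1 lost its call without young controls 1, 3 or 4 or treated mice 1, 3 or 4 (0.0518 to 0.103), Klf4 without young controls 1, 2, 3 or 4 or treated mice 1 or 3 (0.0508 to 0.110), and Gsta3 without young controls 3 or 4 (0.0503 to 0.0524). Rbm3 passed without treated mice 1 and 3 together (adjusted p = 0.0478), and no gene of the glucocorticoid or immediate early lists did.

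Large rises were also seen outside these groups. Csprs, a gene of the component of Sp100-rs family, read 5.64, 5.93, 5.81 and 5.26 in young and 7.12, 7.56, 7.92 and 7.75 in treated hearts, a difference of 1.93 ± 0.18 (adjusted p = 0.000794). The family has near-identical copies that an array probe may not separate, so the source gene is uncertain. Fam107a, an actin-associated protein, read 5.59, 4.98, 5.60 and 6.07 and 6.86, 6.94, 7.89 and 7.41, a difference of 1.71 ± 0.25 (adjusted p = 0.00943). Cyp2b10, a xenobiotic-metabolising cytochrome P450, read 5.28, 5.37, 5.49 and 5.33 and 6.31, 7.10, 6.38 and 7.13, a difference of 1.37 ± 0.19 (adjusted p = 0.00763). For each of the 3 the lowest treated heart exceeded the highest young heart, as for every called gene that rose (5.57% of all genes did).

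Among the falls, Bdnf, a neurotrophin, read 7.56, 7.19, 7.42 and 7.25 in young and 7.0, 6.51, 6.57 and 6.46 in treated hearts, a difference of -0.72 ± 0.13 (adjusted p = 0.0293). Slc40a1 (ferroportin), the cellular iron exporter, read 9.62, 9.75, 9.47 and 9.61 and 8.96, 8.73, 8.96 and 8.72, a difference of -0.77 ± 0.13 (adjusted p = 0.0212). Egf, the epidermal growth factor, differed by -0.75 ± 0.15 (adjusted p = 0.0363) and Whrn, the scaffold protein whirlin, by -0.69 ± 0.11 (0.0175). Cdc25a, a cell-cycle phosphatase, fell from 5.50 to 5.60 in young to 4.66 to 5.21 in treated hearts, with a difference of -0.64 ± 0.12 (adjusted p = 0.0298). The transmembrane protein gene Tmem266, the repulsive guidance molecule gene Rgma and the histone H3 gene H3c6 completed the 15 deepest falls, with differences of -0.60 ± 0.11, -0.56 ± 0.11 and -0.54 ± 0.11 (adjusted p = 0.0315, 0.0427 and 0.0460). Treated and young hearts did not overlap for any of these 8 genes, which holds for every called gene. Over all genes 6.1% had all treated hearts below all young ones. Their calls were lost with single arrays left out: for Bdnf young controls 1, 3 or 4 or treated mice 3 or 4 (adjusted p 0.0600 to 0.110), for Slc40a1 and Whrn young controls 1, 3 or 4 or treated mouse 3 (0.0557 to 0.0705 and 0.0595 to 0.0650), and for Egf young controls 1, 3 or 4 or treated mice 1 or 3 (0.0915 to 0.120). For Cdc25a they were young controls 1, 2, 3 or 4 or treated mice 3 or 4 (0.0557 to 0.110), for Tmem266 young controls 1, 3 or 4 or treated mice 1, 3 or 4 (0.0541 to 0.110), for Rgma young controls 1, 2, 3 or 4 or treated mice 1, 3 or 4 (0.0586 to 0.134), and for H3c6 any of the 10 arrays (0.0572 to 0.130).

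The genes of the drug's target complex did not pass. Of 11 genes of the mTOR complexes and FK506-binding proteins none did, and the median difference was 0.0027, or -0.012 in the authors' deposited matrix (smallest adjusted p = 0.0989, for Fkbp5). Fkbp1a read 9.44, 9.76, 9.68 and 9.63 in young and 9.72, 9.59, 9.56 and 9.67 in treated hearts, in overlapping groups. Mtor read 7.77, 7.91, 7.89 and 7.88 and 8.58, 7.93, 8.30 and 7.99. All 4 treated hearts were above the young ones, by 0.34 ± 0.14 (adjusted p = 0.227), with treated mice 1 and 3 the highest, and without those 2 the difference was 0.10 (adjusted p = 0.748). Fkbp4, a co-chaperone of steroid receptors, differed by -0.37 ± 0.11 (adjusted p = 0.125). None of 21 genes upstream or downstream of mTOR passed, none of 24 autophagy genes, none of 27 lysosomal genes and none of 44 cytosolic ribosomal protein genes (medians 0.03, 0.02, 0.12 and 0.10). At an unadjusted p under 0.05 the counts were 3 for the mTOR complexes and FK506-binding proteins, and 5, 5, 5 and 9 for these other lists in the same order. Over all tested probes the count was 2462 of 13773. mRNA levels do not measure mTOR activity, which is regulated through phosphorylation.

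The 2 old control hearts give the values at 25 months without the drug, at n = 2. Both comparisons use the same young hearts. Against those, 86 probes passed in the old controls (0.624% of 13773), 61 genes higher (0.638% of 9565) and 12 lower (0.125%). Without old control 1 the count was 5, and without old control 2 it was 214. In the old controls Ccl8 read 9.27 and 8.19 and differed from the young by 3.70 ± 0.28 (adjusted p = 0.000196). S100a8 read 11.61 and 8.85 (4.02 ± 0.59, adjusted p = 0.00951), and Gpnmb 7.59 and 7.44 (1.40 ± 0.13, 0.000347). Both old hearts lay above every treated heart for Ccl8 and Gpnmb. For S100a8 old control 1 did, and old control 2 lay within the treated range. Angptl4 read 6.86 and 6.36 and lay below every treated heart (-2.64 ± 0.31, adjusted p = 0.00291), as did Pdk4 at 10.47 and 10.03 (-1.96 ± 0.28, 0.00877). Cxcl13 (8.50 and 8.38), C4b (9.73 and 9.06), Dbp (10.68 and 10.19), Ciart (7.06 and 6.31), Kcnk1 (6.97 and 6.71), Csprs (7.68 and 7.45) and Rbm3 (10.10 and 9.65) also lay above all young hearts and passed (adjusted p 0.000333 to 0.0122).

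Other genes called between treated and young hearts read nearer the young level in the old controls. Bdnf read 7.46 and 7.40 in the old controls (difference from young 0.08 ± 0.16, adjusted p = 0.906). Klf4 read 7.30 and 6.74 (0.12 ± 0.17, 0.830), Zfp36 8.34 and 8.60 (0.19 ± 0.19, 0.751) and Cebpb 10.33 and 10.08 (0.14 ± 0.17, 0.803). Sgk1 read 11.01 and 10.94 (0.28 ± 0.15, 0.490), Per1 8.51 and 8.40 (0.58 ± 0.26, 0.371) and Fam107a 6.47 and 6.22 (0.79 ± 0.30, 0.286). Retnla read 6.68 and 7.81, with old control 1 at the young level and old control 2 within the treated range (0.87 ± 0.51, 0.525). A call in one comparison and not in the other does not show a difference between treated and old hearts, which was tested directly. In that test no probe of 13773 passed (0%), the smallest adjusted p was 0.141, and 1598 probes had an unadjusted p under 0.05. Among the genes above its larger values included -1.45 ± 0.28 for Ccl8 (adjusted p = 0.213), -0.80 ± 0.16 for Bdnf (0.213), 0.61 ± 0.19 for Zfp36 (0.310), -0.76 ± 0.13 for Gpnmb (0.213) and 1.19 ± 0.31 for Angptl4 (0.244). Smaller were 0.02 ± 0.22 for Csprs (0.978), -0.05 ± 0.17 for Rbm3 (0.943) and -0.32 ± 0.27 for Cxcl13 (0.668). Dbp and Ciart differed by -0.34 ± 0.28 (0.658) and -0.32 ± 0.26 (0.653). Without old control 2, which leaves 1 old heart assumed to vary like the others, 36 probes passed (4 higher, 32 lower), and without treated mouse 2, 1 probe did. With the authors' deposited matrix in place of the normalised scanner values 3 passed, all lower in treated hearts.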

How the data were processed

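RNA from heart of 10 mice, 1 array each, was measured on Illumina BeadChips. RNA was extracted with Trizol and RNeasy and amplified as biotinylated cRNA, per the labels' protocols. The deposited scanner values are probe intensities that were not normalised, each with a detection p-value, exported from GenomeStudio 2011.1 per the submitters' processing notes. The intensities in the authors' deposited matrix have a normalisation not given in the sources used here and served as an alternative.

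Here intensities were corrected with limma's neqc (limma 3.58.1, R 4.3.3; normexp, whose negative-control mean and spread come from the detection p-values; offset 16, quantile normalisation, log2) over the 10 heart arrays. Probes with detection p under 0.05 on at least 2 of the 10 were tested with lmFit and eBayes, 1 mean per group, and p-values were adjusted by Benjamini-Hochberg over all tested probes. A gene was represented by its probe of highest mean. Of 25697 probes 23978 had 1 symbol, 1719 none and 0 several, and 23962 matched RefSeq by Entrez ID. The array names no genome build, so coordinates are given for promoters alone. Named genes were the 15 largest rises and falls, up to 5 passing members of each of 61 gene lists (or 2 of smallest p), members of short lists, and Mtor and Fkbp1a. The members and lists were chosen with earlier results of these data known. The files carry no chip numbers, so chip batches were not modelled. Methods were tested on simulated data. The number of arrays limits the precision. Figures used matplotlib 3.10.9.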

Additional observations from a re-analysis of the deposited data

Results flagged for a closer look

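For each named gene, young and treated groups of 4 were checked for 1 heart far from its 3 companions by Dixon's test. Of 174 groups tested 12 were marked, and chance marks about 5%. Young control 2 stood out for 6 genes. Its T-cell genes Cd8b1 and Cd3d read 11.17 and 8.84, against 5.11 to 6 and 4.54 to 4.69 in the other young hearts. In that heart the complement gene C1qc read 8.58 against 8.2 to 8.25 in the other young hearts, the class II genes H2-Ab1 9.74 against 8.53 to 8.72 and Ciita 5.02 against 4.38 to 4.47, and the D-box activator Tef 7.4 against 7.9 to 8. Lyve1 read 6.8 in young control 1 against 6.3 to 6.33, and Zfp36 8.45 in young control 4 against 8.21 to 8.24. Treated mouse 3 stood out for Lgals3 (9.45 against 9.19 to 9.23), Ciart (6.95 against 6.16 to 6.17) and Per2 (8.79 against 8.25 to 8.28). Fkbp5 read 6.99 in treated mouse 1 against 7.52 to 7.58 in the other treated hearts.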

How the results depend on the processing

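The count of 130 probes between treated and young hearts moved most with the arrays used. It ran from 30 to 267 with 1 heart left out, and was 31 without treated mice 1 and 3. It was 56 with the authors' matrix, 79 with no detection filter, 212 with array weights and 255 under median scaling. Of the 54 called genes named above, 37 lost their call with the authors' matrix and 32 with no detection filter. Those lost with the authors' matrix included S100a8, Retnla, Myh7, Per1, Per2, Angptl4 and H2-Eb1. Fam107a, which kept its call with each heart left out, also missed the threshold there (adjusted p = 0.0578). Median scaling also shifted the median of all probes to 0.106. The calls split 105 higher to 25 lower, against 114 to 53 with a normexp offset of 50, 82 to 55 with no background correction and 242 to 13 under median scaling. For old against young hearts the count of 86 ran from 5 to 214 with 1 heart left out, and was 45 with the authors' matrix, 43 with no filter, 326 with array weights and 271 without treated mice 1 and 3. For treated against old hearts it ran from 0 to 36, and was 3 with the authors' matrix. With no filter more probes were tested, and leaving out hearts leaves fewer samples. What moved the counts was not tested.

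Deviations from the group means correlated between same-numbered young and treated hearts at -0.08, -0.073, 0.047 and 0.011. Old controls were not part of that check. A shared chip could not be checked, as the files carry no chip numbers. With a replicate block the counts were 55 for treated against young (54 higher and 1 lower) and 19 for old against young. Of the 54 called genes named above, 31 lost their call with that block. None of the 54 called genes changed direction in any of the up to 22 alternatives. With hearts left out this is nearly fixed in advance, as the groups of called genes do not overlap. Of the named genes that had not passed, 5 did change direction. Npas2 read -0.0749 with array weights, -0.1158 without treated mice 1 and 3, and -0.0919 to 0.101 with 1 heart left out. Myh6 read 0.01 and 0.0323 in the first 2 of these. With 1 heart left out Fkbp1a ran from -0.0563 to 0.0486, Cd3d from -0.8571 to 0.5727 and Cd8b1 from -1.6744 to 0.345, with the positive end of Cd3d and Cd8b1 reached without young control 2. Of the 54 called, 9 passed in all 22, 40 without young control 2 and 15 without treated mice 1 and 3. Where a fit left out an old control, the other was assumed to vary like the rest. With 4 hearts a group and 2 old controls, small differences could not be called.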
